A study of Sus scrofa with 2 samples.

Results

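Cell adhesion genes of 4 groups were followed across the cell types of the newborn piglet olfactory mucosa: the contactins CNTN1, CNTN3, CNTN4 and CNTN5, the neural cell adhesion molecule NCAM1, the L1 family genes NRCAM, NFASC and L1CAM, and the KIRREL genes KIRREL2 and KIRREL3. The 10 genes were chosen by name, and all 10 were among the 25880 rows of both count tables. CNTN5 was listed only under the identifier ENSSSCG00000014975, and its name came from a table of gene names; the other 9 were listed by symbol. The data were single-nucleus RNA counts from olfactory neuroepithelium of CFTR knockout (1 library) and wild type (1 library) newborn piglets. CFTR encodes the chloride channel that is defective in cystic fibrosis. Both tissues were frozen and handled by the same protocol, no other allele or treatment is named in the labels, and nothing says how many animals each library holds.

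Adhesion proteins of the immunoglobulin superfamily sit on the surface of axons and cells and bind partners on the same or on neighbouring cells. Contactins are held in the membrane by a lipid anchor and have no cytoplasmic part, whereas the L1 family proteins cross the membrane and attach to the spectrin skeleton through ankyrins. NCAM1 binds itself across cells and is labelled in many olfactory axons. In the mouse, Kirrel2 and Kirrel3 are found in largely complementary subsets of olfactory sensory neurons, and together with contactin-4 they take part in sorting axons of neurons with the same odorant receptor into shared glomeruli of the olfactory bulb.

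Each genotype was measured in 1 library, so nothing could be tested or checked on replicates: each difference below compares these libraries, not the genotypes, and all intervals are 95% intervals that cover counting error only. Levels are in CPM, counts scaled to a common library total, as a gene's unique molecular identifiers (UMIs, 1 per captured transcript) divided by all UMIs of the nuclei, and they compare 1 gene between classes, not genes with each other. The kept nuclei numbered 5761 in the knockout library against 4536 in the wild type library, at a median depth of 2093 UMIs (knockout) and 2966 UMIs (wild type), so that low genes were counted more precisely in the wild type library. CFTR itself stood at 12.7 CPM in the knockout library and 88.9 CPM in the wild type library. Olfactory neurons and their precursors made up 27.7% of the knockout nuclei and 43.7% of the wild type nuclei, and held 35.9% and 55.8% of the UMIs of those libraries. That count leaves out 2 unnamed clusters of shallow nuclei with neuron markers. Cluster 1 held 929 knockout nuclei (median 533 UMIs) and 33 wild type nuclei (620 UMIs), with the 10 mature neuron markers summing to 4500 CPM (knockout) and 3539 CPM (wild type) and the 10 immature ones to 2287 CPM (knockout) and 3828 CPM (wild type). The leading genes of cluster 1 included BPIFA1 and TFF3, markers of respiratory secretory cells, and COL1A1 and COL1A2, markers of fibroblasts. Cluster 19 held 17 knockout and 178 wild type nuclei and was led by NIN, CYP2A19 and mitochondrial genes. Whether the nuclei of these clusters are neurons was not tested. With both clusters counted as neurons, the share was 44.1% of the knockout nuclei and 48.4% of the wild type nuclei. They then held 39.7% and 57.0% of the UMIs of those libraries. Mitochondrial transcripts took 1.31% of UMIs in the knockout library against 2.83% in the wild type library, and 8 barcodes occurred in both libraries.

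Nuclei were clustered without the 10 genes, and clusters were named from marker genes as mature olfactory neuron-like, immature olfactory neuron-like, globose basal or precursor-like, horizontal basal-like, glia-like and other types. The mature class consisted of cluster 2 (79 knockout and 730 wild type nuclei) and cluster 3 (843 knockout and 156 wild type nuclei), so that different clusters held most of it in the 2 libraries. The immature class consisted of cluster 6, led by GAP43, a growth cone gene (468 knockout and 619 wild type nuclei), and cluster 21, led by TEX15 and PURG (89 knockout and 294 wild type nuclei). Clusters that did not reach a name, or whose leading genes included another type's markers, are given by number: clusters 8 and 9 carry 2 markers each of sustentacular cells, the support cells of the epithelium, clusters 4 and 14 carry fibroblast markers, and cluster 0 carries markers of respiratory secretory cells beside TP63.

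Most of the 10 genes were neuronal in these libraries, but not all in the same stage. The neurons and precursors held 91.7% of the CNTN4 UMIs in the knockout library and 95.2% in the wild type library, and 93.9% and 95.9% of the KIRREL2 UMIs of those libraries. For NRCAM the share was 49.8% in the knockout library and 42.2% in the wild type library. CNTN3 stood lowest, with 16.1% of its UMIs in neurons and precursors in the knockout library and 31.4% in the wild type library, below the share of all UMIs in these classes. Over 19 classes and clusters, each with 20 or more nuclei per library, 7 of the 10 genes had their highest level in the same class in both libraries, and CNTN3, CNTN5 and L1CAM did not.

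**Figure D1:**
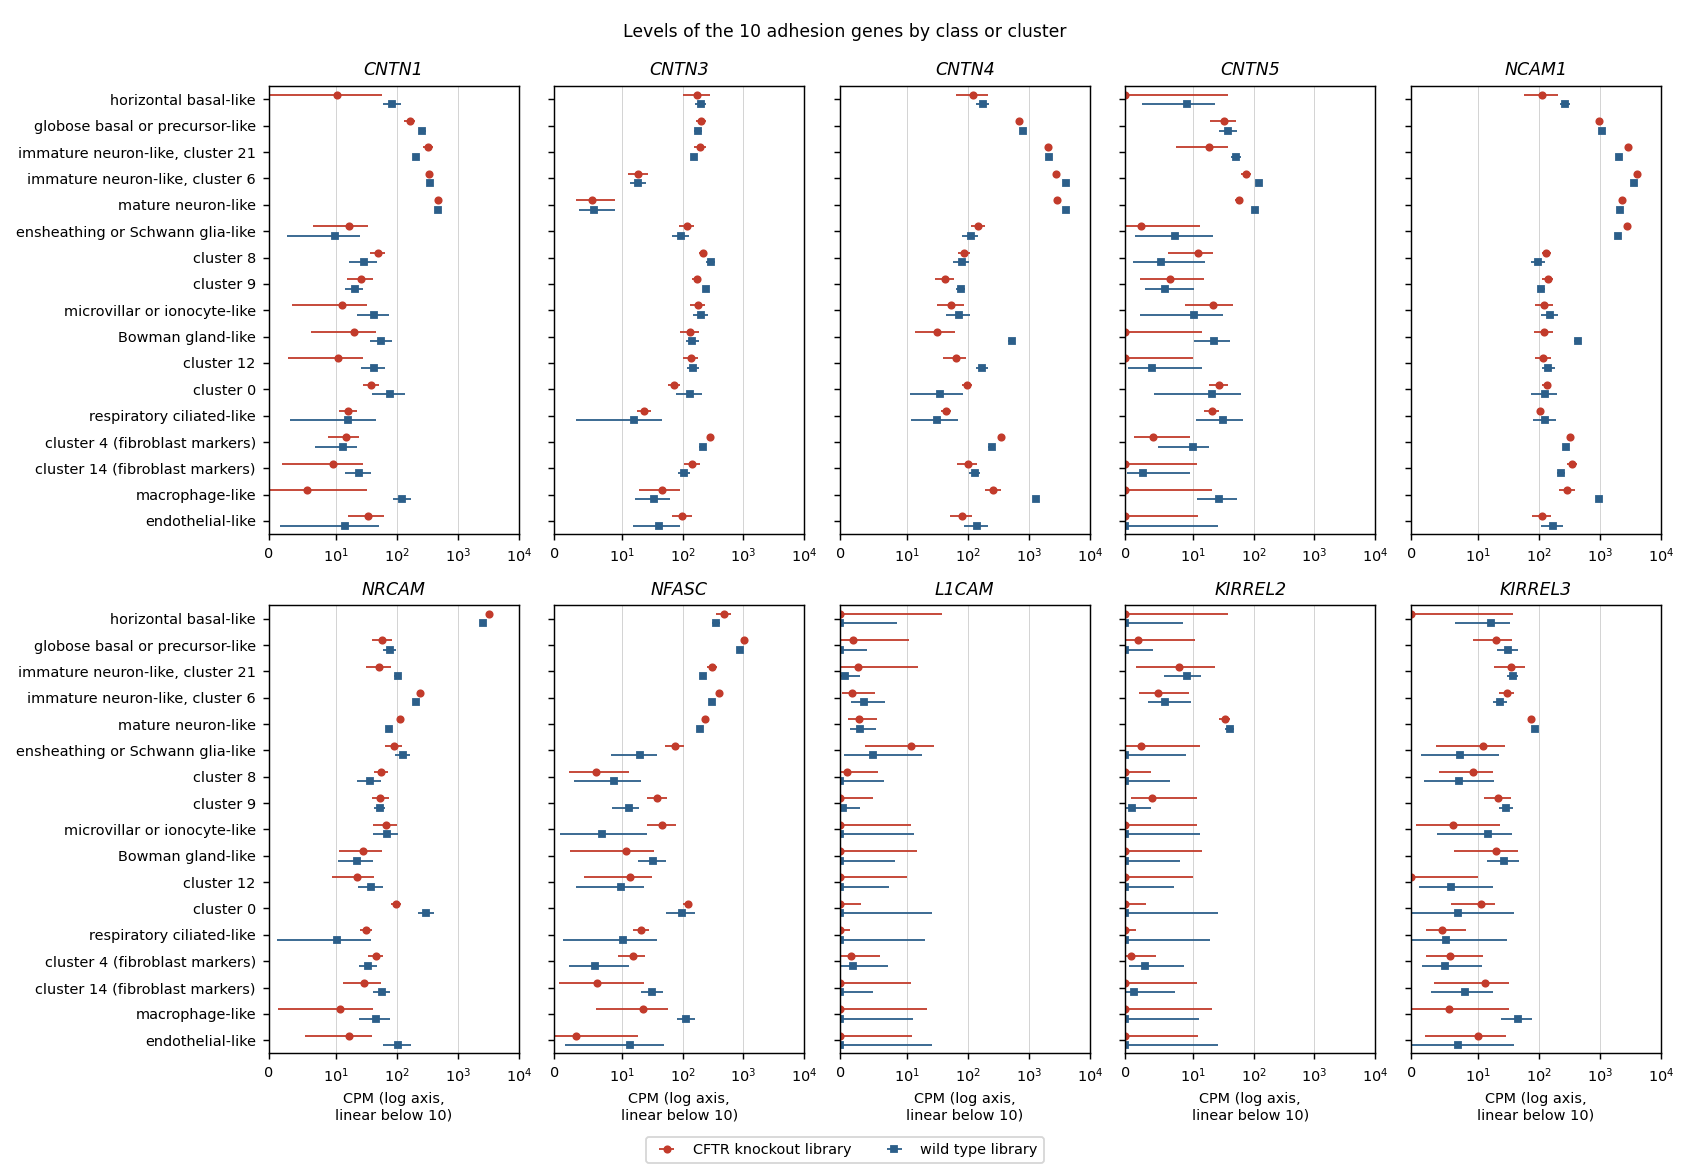
Levels of the 10 adhesion genes in CPM (horizontal log axis, linear below 10) by class or cluster. Red circles are the knockout library, blue squares the wild type library, and lines the exact Poisson 95% intervals. CNTN4 is highest in the neuronal classes, NRCAM in the horizontal basal-like nuclei at 3302 CPM (knockout) and 2638 CPM (wild type), and CNTN3 is lowest in the mature neurons at 5.58 CPM (knockout) and 5.95 CPM (wild type).

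CNTN4, an axonal contactin that in the mouse takes part in olfactory axon sorting, was present in nearly all mature neurons. Its level in the mature class was 2868 CPM (interval 2806 to 2931) in the knockout library and 4007 CPM (3942 to 4072) in the wild type library. After each nucleus was thinned to 1000 UMIs, which sets depth equal, 802 of 888 mature knockout nuclei (90.3%, exact binomial interval 88.2 to 92.2) and 806 of 858 mature wild type nuclei (93.9%, 92.1 to 95.4) kept a CNTN4 UMI. In respiratory ciliated-like nuclei, used here and below as a background, the share was 3.68% of 462 knockout nuclei and 3.12% of 32 wild type nuclei. The 10 mature neuron markers summed to 672 CPM (knockout) and 568 CPM (wild type) in these nuclei. In the glia-like class they summed to 1120 CPM (knockout) and 1232 CPM (wild type), so this background may be low for other classes. The median depth before thinning was 2848 UMIs in mature knockout nuclei and 3732 in mature wild type nuclei, against 3815 and 4856 in the ciliated-like nuclei of those libraries.

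The CNTN4 level climbed along the neuronal classes and reached its plateau in the GAP43 cluster. It was 675 CPM in knockout precursors and 785 CPM in wild type precursors, where 6 of 114 knockout nuclei held 48.4% of the UMIs and 10 of 185 wild type nuclei held 49.5%. It was 2068 CPM and 2163 CPM in cluster 21 of those libraries. In cluster 6 it was 2803 CPM (2723 to 2885) in the knockout library and 4044 CPM (3966 to 4123) in the wild type library, and in each library this interval overlapped that of the mature level. The 2 libraries thus had like levels in cluster 21, where their intervals overlap, and stood apart in cluster 6 and in the mature class.

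CNTN4 counts varied widely among mature nuclei. The thinned count had a median of 2 UMIs per knockout nucleus (highest 13) and a median of 4 UMIs per wild type nucleus (highest 14). Its variance was 1.59 times its mean in the knockout library and 1.67 times in the wild type library, where 1 is pure counting noise. NCAM1 had a ratio of 1.29 in the knockout library and 1.44 in the wild type library. The ratio grows with the mean, which was 2.82 UMIs (knockout) and 3.91 UMIs (wild type) for CNTN4 and 2.20 UMIs (knockout) and 2.01 UMIs (wild type) for NCAM1, and genes of like mean were not compared. No thinned CNTN4 UMI was left in 86 knockout nuclei (9.68%) and 52 wild type nuclei (6.06%).

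**Figure D2:**
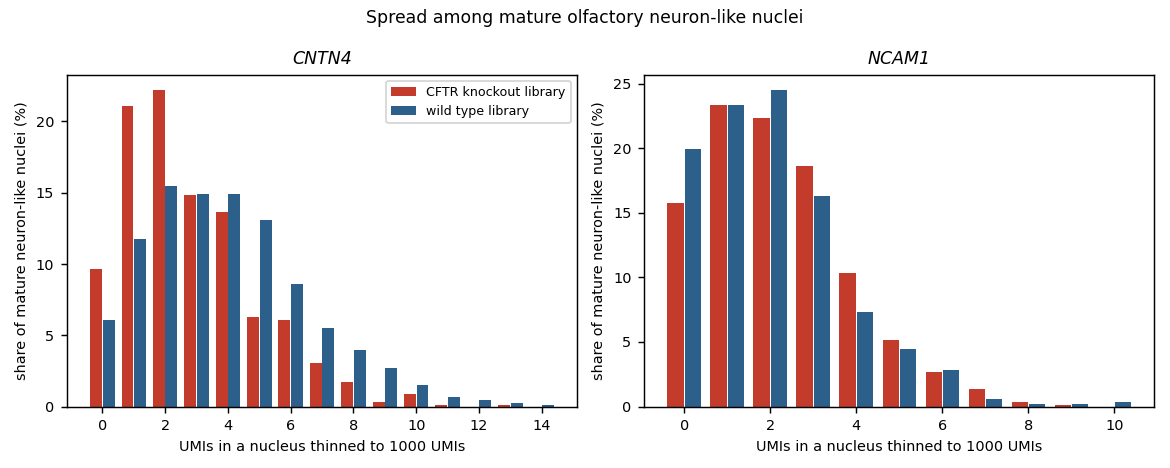
Share of mature neuron-like nuclei (vertical axis, percent) by the number of CNTN4 or NCAM1 UMIs left after thinning to 1000 UMIs (horizontal axis), for 888 knockout (red) and 858 wild type (blue) nuclei. The CNTN4 median is 2 UMIs in the knockout library and 4 UMIs in the wild type library, while NCAM1 has a median of 2 UMIs in both.

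CNTN4 levels of mature neurons of different zonal types overlapped. NQO1, a gene of neurons in the dorsal zone of the mouse epithelium, and NCAM2, a gene of the remaining zones, were used to split the mature nuclei. Nuclei with a UMI of NQO1 and none of NCAM2 had 2992 CPM of CNTN4 in the knockout library (225 nuclei, 2866 to 3123) and 4119 CPM in the wild type library (72 nuclei, 3890 to 4358). Nuclei with NCAM2 and no NQO1 had 2821 CPM in the knockout library (220 nuclei, 2705 to 2940) and 4026 CPM in the wild type library (559 nuclei, 3948 to 4106). Within each library the 2 kinds of nuclei overlapped, and within each kind the knockout library was lower. A UMI of either gene depends on depth, so that the 442 knockout and 212 wild type nuclei with neither cannot be assigned; in these CNTN4 was at 2836 CPM (knockout) and 3768 CPM (wild type).

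Outside neurons, CNTN4 in fibroblast-marker cluster 4 exceeded the level of the ciliated-like nuclei. Cluster 4 had 347 CPM (315 to 382) in the knockout library and 246 CPM (216 to 279) in the wild type library, with thinned shares of 23.3% of 514 knockout and 19.8% of 400 wild type nuclei. Both libraries were thus above the ciliated-like levels of 43.5 CPM (knockout) and 31.3 CPM (wild type). The 10 markers of mature neurons summed to 1384 CPM in knockout and 1329 CPM in wild type cluster 4, against 672 CPM and 568 CPM in the ciliated-like nuclei of those libraries, with none of the 10 at 0 in cluster 4 and CNGA4 and RTP2 at 0 in the wild type ciliated-like nuclei; their part in the CNTN4 level was not tested.

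In the macrophage-like class the CNTN4 level was 261 CPM in the knockout library and 1283 CPM in the wild type library, and a few nuclei carried it. Of the 376 UMIs in the wild type macrophage-like nuclei, 72.6% came from 4 of 77 nuclei, and of the 46 UMIs in the knockout ones 84.8% came from 5 of 93. In the mature class the same upper 5% of nuclei held 17.4% of the CNTN4 UMIs in the knockout library and 16.5% in the wild type library. Such a share rises as the count falls, and the mature class held 8220 CNTN4 UMIs (knockout) and 14808 (wild type). The macrophage-like nuclei carried 1395 CPM (knockout) and 1655 CPM (wild type) of the mature neuron markers, with CNGA2 at 0 in the knockout and RTP2 at 0 in the wild type library. Of the immature neuron markers they carried 715 CPM (knockout, CRMP1 at 0) and 1283 CPM (wild type, none of the 10 at 0), and the part of these neuronal transcripts in the CNTN4 level was not tested.

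CNTN5, a contactin of axons and synapses, followed the pattern of CNTN4 at a low count. It was at 57.9 CPM (49.4 to 67.4) in mature knockout neurons and 103 CPM (93.3 to 114) in mature wild type neurons, and in cluster 6 at 74.8 CPM (62.2 to 89.2) in the knockout library and 122 CPM (109 to 136) in the wild type library. A thinned UMI was found in 4.39% of 888 mature knockout nuclei and in 9.32% of 858 mature wild type nuclei. The ciliated-like nuclei had 20.5 CPM in the knockout library, with thinned UMIs in 2.60%, and 31.3 CPM from 6 UMIs in the wild type library. The thinned share of mature knockout neurons was thus close to this background. Their level stood above it, at 57.9 CPM against 20.5 CPM.

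CNTN1, a contactin that joins CNTNAP and neurofascin proteins at the borders of nodes of Ranvier, was highest in the mature neurons. It reached 473 CPM (448 to 499) in mature knockout neurons and 470 CPM (448 to 493) in mature wild type neurons, a log2 ratio of 0.01 (interval -0.09 to 0.11). Cluster 6 had 337 CPM in the knockout library and 347 CPM in the wild type library. Earlier in the lineage the libraries were not alike: precursors had 163 CPM (130 to 201) in the knockout and 261 CPM (229 to 297) in the wild type library, whereas cluster 21 had 324 CPM (269 to 387) in the knockout and 206 CPM (188 to 224) in the wild type library. Cluster 21 thus stood above the precursors in the knockout library and below them in the wild type library. The 6 non-neuronal classes large enough for a ratio lay between 9.51 and 48.1 CPM in the knockout library and between 9.80 and 41.3 CPM in the wild type library.

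CNTN3 ran in the opposite direction and was nearly absent from mature neurons. It was at 201 CPM (164 to 243) in knockout precursors and 179 CPM (153 to 209) in wild type precursors, and at 194 CPM and 152 CPM in cluster 21 of those libraries. A few nuclei carried much of these levels: in precursors 6 of 114 knockout nuclei held 45.7% and 10 of 185 wild type nuclei held 57.1% of the CNTN3 UMIs, and in the immature class 28 of 557 knockout nuclei held 84.6% and 46 of 913 wild type nuclei held 61.9%. In cluster 6 only 18.7 CPM remained in the knockout library and 18.6 CPM in the wild type library, and in the mature class 5.58 CPM (16 UMIs) and 5.95 CPM (22 UMIs) of those libraries. A thinned CNTN3 UMI occurred in 0.225% of mature knockout and 0.466% of mature wild type nuclei, below the 1.95% (knockout) and 3.12% (wild type) of the ciliated-like nuclei.

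Outside the neurons CNTN3 was widespread, in clusters with support cell, gland and fibroblast markers alike. Among these 19 classes the highest level in the knockout library was 285 CPM (256 to 316) in fibroblast-marker cluster 4, and the highest in the wild type library 289 CPM (247 to 337) in cluster 8. The other library stood at 213 CPM in cluster 4 (wild type) and at 216 CPM in cluster 8 (knockout). Cluster 9 had 171 CPM (142 to 203) in the knockout library and 239 CPM (217 to 262) in the wild type library. The microvillar or ionocyte-like nuclei had 178 CPM (knockout) and 198 CPM (wild type), and the Bowman gland-like nuclei 133 CPM (knockout) and 145 CPM (wild type).

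**Figure D3:**
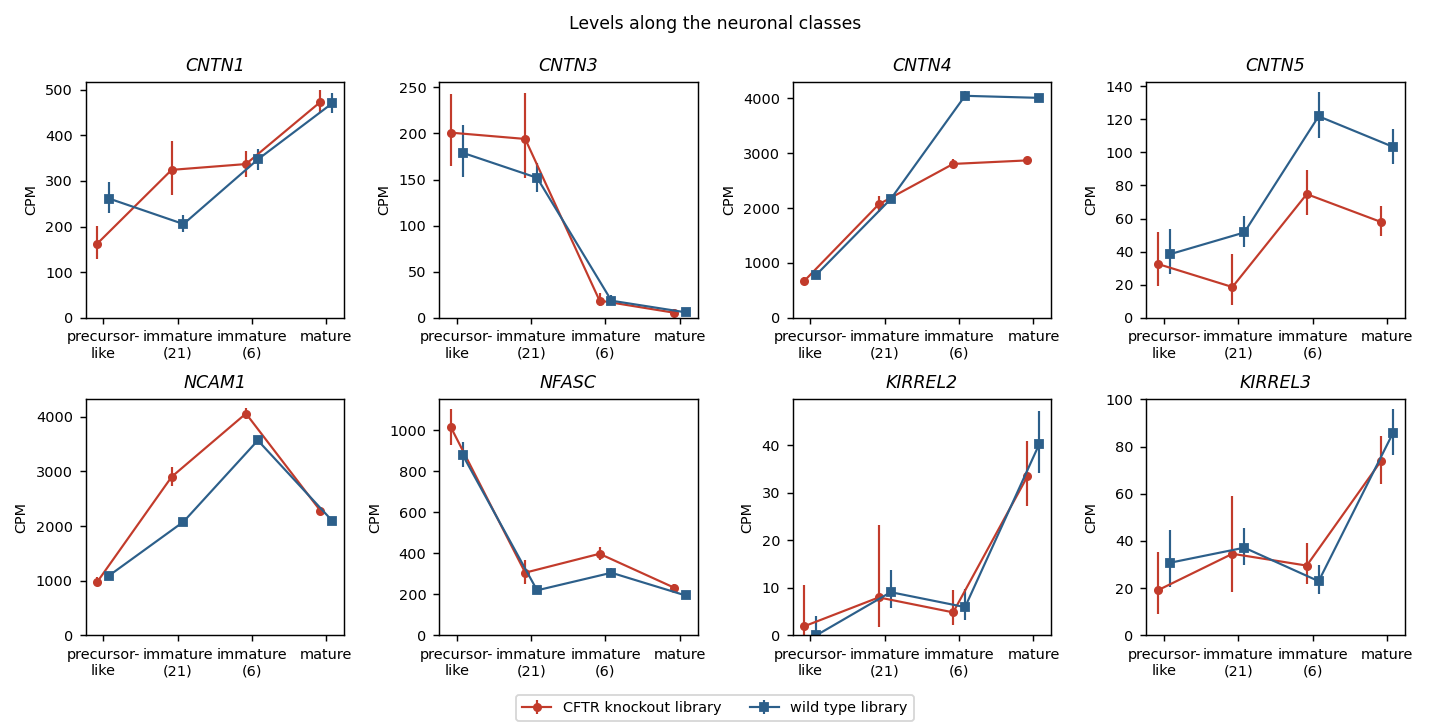
Levels in CPM (vertical axis, from 0) of 8 adhesion genes along the neuronal classes, ordered from precursor-like through clusters 21 and 6 of the immature class to mature neurons; red circles are the knockout library, blue squares the wild type library, with exact Poisson 95% intervals. CNTN3 is at 201 and 179 CPM in precursors of the knockout and wild type library and below 6 CPM in mature neurons, while KIRREL2 is at 33.5 CPM and 40.3 CPM in the mature class of those libraries.

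NCAM1 peaked in the GAP43 cluster and was also high in glia. In cluster 6 it reached 4060 CPM (3964 to 4158) in the knockout library and 3569 CPM (3496 to 3644) in the wild type library, and 434 of 446 knockout and 564 of 601 wild type nuclei kept a UMI after thinning. Mature neurons had less, at 2283 CPM (2228 to 2339) in the knockout library and 2097 CPM (2051 to 2144) in the wild type library. Precursors had 978 CPM (knockout) and 1094 CPM (wild type).

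The ensheathing or Schwann glia-like nuclei, which wrap olfactory axons, had 2740 CPM of NCAM1 (2585 to 2902) in the knockout library and 1989 CPM (1855 to 2131) in the wild type library. The glial level overlapped that of cluster 21 in each library, which was 2901 CPM (2731 to 3078) in the knockout and 2079 CPM (2022 to 2137) in the wild type library. NCAM1 UMIs were spread over the glia-like nuclei: 146 of 168 thinned knockout nuclei (86.9%) and 116 of 145 thinned wild type nuclei (80.0%) had one, against 10.8% and 15.6% of the ciliated-like nuclei of those libraries. The upper 5% of glia-like nuclei held 17.7% of the NCAM1 UMIs in the knockout library and 17.0% in the wild type library, close to the mature neurons. For CNTN4 in the same glia it was 57.1% (knockout) and 53.3% (wild type). This share rises as the count falls, and the glia held 63 and 45 CNTN4 UMIs against 1169 and 812 of NCAM1 in those libraries. It therefore does not compare the spread of the 2 genes. The glia-like nuclei carried 1120 CPM (knockout, RTP2 at 0) and 1232 CPM (wild type, none at 0) of the 10 mature neuron markers, and 455 CPM (knockout, CRMP1 at 0) and 576 CPM (wild type, none at 0) of the 10 immature neuron markers; their part in the NCAM1 level was not tested.

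NRCAM, an L1 family protein known from nodes of Ranvier and growing axons, had its highest level not in neurons but in the horizontal basal-like nuclei, the reserve stem cells of the epithelium marked by TP63 and keratins. That class was small, with 38 knockout and 105 wild type nuclei. It had 3302 CPM of NRCAM (2952 to 3682, 324 UMIs) in the knockout library and 2638 CPM (2487 to 2795, 1146 UMIs) in the wild type library. The next class, cluster 6 of the immature neurons in the knockout library, had 239 CPM (216 to 264), and in the wild type library cluster 0 followed with 305 CPM. A thinned NRCAM UMI was found in 32 of 36 knockout nuclei (88.9%, 73.9 to 96.9) and 88 of 102 wild type nuclei (86.3%, 78.0 to 92.3), against 2.60% of the ciliated-like knockout nuclei and 0 of 32 wild type ones (interval up to 10.9%).

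TP63 nuclei outside the horizontal basal-like class had less NRCAM. Among nuclei with a TP63 UMI, those of cluster 0 had 202 CPM (150 to 265, 111 nuclei) in the knockout library and 585 CPM (392 to 840, 20 nuclei) in the wild type library, while the horizontal basal-like ones had 3334 CPM (35 knockout nuclei) and 2689 CPM (95 wild type nuclei). KRT14, a basal keratin, did not separate them in the same way, at 212 CPM (knockout) and 356 CPM (wild type) in the horizontal basal-like TP63 nuclei, and 285 CPM (knockout) and 545 CPM (wild type) in the TP63 nuclei of cluster 0. The horizontal basal-like class depended on the clustering. Where it took in 159 to 255 knockout nuclei, its knockout NRCAM level was between 826 and 1000 CPM and its wild type level between 2376 and 2650 CPM. At resolution 2 these nuclei split into a cluster with 3302 CPM (38 knockout nuclei) and 2638 CPM (105 wild type nuclei), and another with 230 CPM (187 knockout nuclei) and 666 CPM (26 wild type nuclei). At resolution 0.5 no cluster was named horizontal basal. NRCAM was then highest in an unnamed cluster with horizontal basal markers, at 343 CPM (468 knockout nuclei) and 2076 CPM (151 wild type nuclei).

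**Figure D4:**
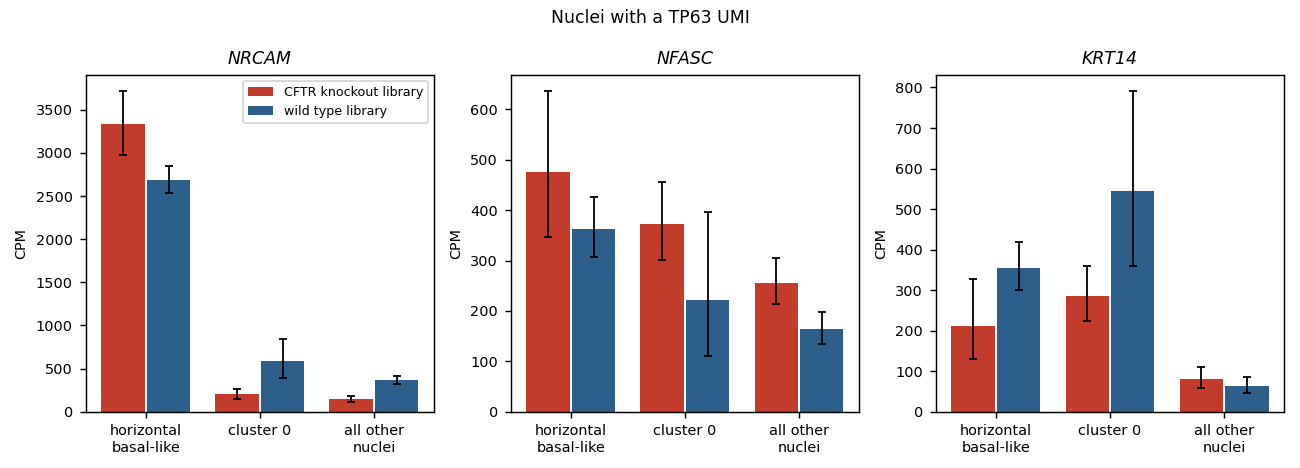
Levels in CPM (bars, from 0, with exact Poisson 95% intervals) of NRCAM, NFASC and KRT14 in nuclei with a TP63 UMI, in the horizontal basal-like class, in cluster 0 and in all other clusters together, in the knockout (red) and wild type (blue) library. NRCAM is at 3334 CPM (knockout) and 2689 CPM (wild type) in the horizontal basal-like nuclei and at 202 CPM (knockout) and 585 CPM (wild type) in cluster 0.

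NFASC encodes neurofascin, an L1 family protein of axon initial segments and nodes, and its highest level was in the precursors. These had 1016 CPM (931 to 1106) in the knockout library and 880 CPM (820 to 943) in the wild type library, and 43.8% of 112 knockout and 47.8% of 178 wild type nuclei kept a UMI after thinning. The horizontal basal-like nuclei came second in each library, with 479 CPM (352 to 637) in the knockout and 359 CPM (305 to 420) in the wild type library, overlapping with cluster 6 at 398 CPM (368 to 430) in the knockout library and 305 CPM (284 to 328) in the wild type library. Mature neurons had 233 CPM (knockout) and 194 CPM (wild type), about the same thinned share of 18.4% in both libraries, and the ciliated-like nuclei 20.9 CPM (knockout) and 10.4 CPM (wild type).

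L1CAM, the founding member of the L1 family, was almost undetected, with 22 UMIs in all knockout nuclei and 31 in all wild type nuclei. Mature neurons held 8 UMIs in the knockout library against 11 in the wild type library. The levels of 1.45 CPM over all knockout nuclei and 1.81 CPM over all wild type nuclei are too low for an order of cell types.

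KIRREL2, an adhesion protein whose mouse counterpart follows the activity of the olfactory neuron, was close to restricted to the mature class. That class held 83.5% of its 115 UMIs in the knockout library and 76.8% of its 194 UMIs in the wild type library. The level was 33.5 CPM (27.1 to 40.9) in mature knockout and 40.3 CPM (34.1 to 47.3) in mature wild type neurons, against 4.82 CPM in knockout and 5.93 CPM in wild type cluster 6. No KIRREL2 UMI was seen in 463 knockout and 32 wild type ciliated-like nuclei, where the Poisson intervals reach up to 1.54 CPM (knockout) and 19.2 CPM (wild type).

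KIRREL3, whose mouse counterpart marks a complementary subset of olfactory neurons, was also highest in mature neurons but less concentrated there. The mature class held 56.4% of its 376 knockout UMIs and 51.2% of its 619 wild type UMIs, at 74.0 CPM (64.3 to 84.6) in the knockout and 85.8 CPM (76.6 to 95.8) in the wild type library. Cluster 6 had 29.5 CPM and cluster 9 had 21.3 CPM in the knockout library, against 22.9 CPM and 28.6 CPM in the same clusters of the wild type library.

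In the wild type library, mature nuclei with KIRREL3 had KIRREL2 less often than those without at each depth, but with overlapping intervals. In the knockout library the intervals overlapped except with thinning to 2000 UMIs, where KIRREL2 was less frequent with KIRREL3. Without thinning, 13 of 142 KIRREL3 nuclei (9.15%, 4.97 to 15.1) and 72 of 780 others (9.23%, 7.29 to 11.5) had a KIRREL2 UMI among knockout nuclei. Among wild type nuclei the counts were 21 of 199 with KIRREL3 (10.6%, 6.65 to 15.7) and 96 of 687 others (interval 11.5 to 16.8%). After thinning, 2 of 56 KIRREL3 nuclei (3.57%) and 24 of 832 others (2.88%) had KIRREL2 in the knockout library, and 2 of 72 (2.78%) and 29 of 786 (3.69%) in the wild type library. In each of these pairs the intervals overlap. Thinned to 2000 UMIs, 0 of 68 KIRREL3 nuclei (interval up to 5.28%) and 45 of 611 others (7.36%, 5.42 to 9.73) had KIRREL2 in the knockout library, and 5 of 117 (4.27%, 1.40 to 9.69) and 45 of 670 (6.72%, 4.94 to 8.88) in the wild type library. The knockout intervals do not overlap at that depth and the wild type ones do, so that these counts settle neither a complementary pattern nor its absence.

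Over all nuclei, every one of the 10 genes was lower in the knockout than in the wild type library, where 40.1% of the 16106 genes with at least 20 UMIs were lower. Their median log2 ratio was -0.48, against 0.10 over all genes. None was lower by 2-fold or more (background 3.02%), though with size factors from the median of ratios, which bring the median of all genes to -0.014, CNTN4 passed 2-fold at -1.02 and CNTN5 at -1.02. The lowest ratios were those of CNTN4, at 1010 CPM in the knockout library against 1901 CPM in the wild type library (log2 ratio -0.91, -0.94 to -0.88), and CNTN5, at 28.6 CPM in the knockout library against 53.6 CPM in the wild type library (-0.90, -1.07 to -0.74). NRCAM followed at -0.61 (-0.70 to -0.52), KIRREL2 at -0.57 (-0.92 to -0.23) and KIRREL3 at -0.54 (-0.73 to -0.35). CNTN1 was at -0.42, NCAM1 at -0.32, CNTN3 at -0.27 and NFASC at -0.22, each with an interval below 0, and L1CAM at -0.32 (-1.17 to 0.52).

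These ratios over all nuclei stand beside the smaller share of UMIs from neurons and precursors in the knockout library, 35.9% against 55.8% in the wild type library without clusters 1 and 19, and 39.7% against 57.0% with them. Without these clusters, an alternative chosen after seeing the data, all 10 members were again below 0, at a median of -0.48. With equal weight given to each class, 6 of the 10 genes were below 0 and their median was -0.050; NCAM1, NRCAM, NFASC and L1CAM then lay above 0.

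Within the neuronal classes the 10 genes did not move together. In mature neurons 5 of the 9 members with at least 20 UMIs were below 0 (background 43.1%), in the immature class 4 of 9 (background 48.3%), and in precursors 6 of 8 (background 44.7%). None of the members was past 2-fold in these classes, where 3.18% of genes in mature neurons, 8.29% in the immature class and 3.93% in precursors were lower by that much, and 5.21%, 2.71% and 4.30% of genes in the same classes were higher. In cluster 6 alone 4 of 9 members were below 0 (background 42.0%), and in cluster 3 of the mature class 4 of 8 (background 45.7%).

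CNTN4 and CNTN5 were lower in knockout neurons of both later stages. In the mature class CNTN4 had a log2 ratio of -0.48 (-0.52 to -0.44) and CNTN5 of -0.84 (-1.11 to -0.57). In cluster 6 of the immature class the ratios were -0.53 (-0.58 to -0.48) for CNTN4 and -0.70 (-1.02 to -0.40) for CNTN5. In cluster 3 alone, to which most mature knockout nuclei belong, CNTN4 was again at -0.48 (-0.56 to -0.40), while CNTN5 was at -0.23 (-0.82 to 0.42), where the 156 wild type nuclei had 27 CNTN5 UMIs. In cluster 2, where the knockout library had 79 nuclei and no ratio was formed, CNTN4 was at 3120 CPM (knockout) and 4013 CPM (wild type), and CNTN5 at 45.6 CPM (knockout) and 107 CPM (wild type).

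NCAM1, NRCAM and NFASC lay on the other side of 0 in the same neurons. In the mature class the log2 ratio was 0.12 (0.08 to 0.17) for NCAM1, which size factors took to 0.034, 0.26 (0.11 to 0.42) for NFASC and 0.58 (0.35 to 0.82) for NRCAM. NRCAM stood at 112 CPM in mature knockout and 74.7 CPM in mature wild type neurons. In cluster 3 alone the ratios were 0.19 (0.08 to 0.30) for NCAM1, 0.64 (0.08 to 1.24) for NRCAM and 0.14 (-0.20 to 0.50) for NFASC, so that the NFASC interval held 0. In cluster 6 the ratios were 0.19 (0.14 to 0.23) for NCAM1, 0.38 (0.23 to 0.53) for NFASC and 0.21 (0.01 to 0.40) for NRCAM. The KIRREL genes could not be placed on either side: KIRREL2 was at -0.27 (-0.65 to 0.11) and KIRREL3 at -0.21 (-0.47 to 0.04) in mature neurons.

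**Figure D5:**
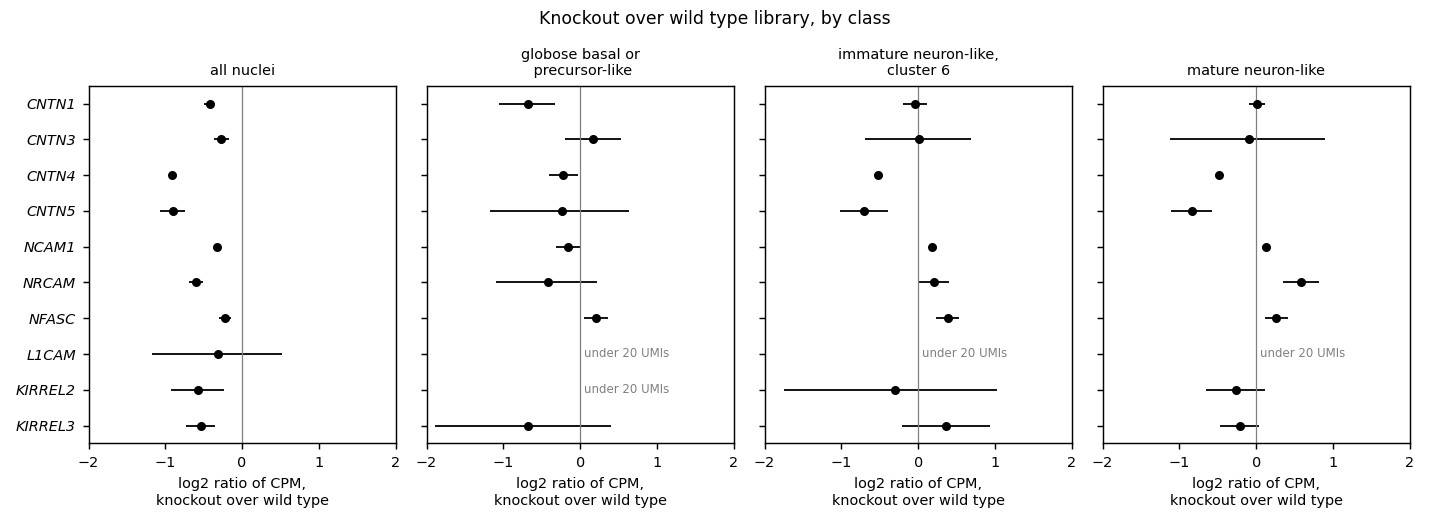
Log2 ratio of CPM, knockout over wild type library, of the 10 adhesion genes (rows) over all nuclei, in precursors, in cluster 6 of the immature class and in mature neurons; points are ratios, lines their 95% counting intervals, and genes under 20 UMIs are written as such in place of a point. All 10 lie below 0 over all nuclei, whereas in mature neurons CNTN4 is at -0.48 and NRCAM at 0.58.

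The immature class held its clusters in different proportions in the 2 libraries. Cluster 21 made up 89 of the 557 knockout nuclei and 294 of the 913 wild type nuclei. CNTN3, which is higher in cluster 21, had a log2 ratio of -0.71 (-1.04 to -0.40) in the whole class and 0.01 (-0.70 to 0.69) in cluster 6 alone. CNTN1 had 0.27 (0.13 to 0.40) in the whole class and -0.04 (-0.20 to 0.11) in cluster 6 alone.

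In precursors CNTN1 was at -0.68 (-1.06 to -0.32), NFASC at 0.21 (0.05 to 0.37), CNTN4 at -0.22 (-0.41 to -0.03) and NCAM1 at -0.16 (-0.32 to -0.01). CNTN4 and NCAM1 turned above 0 when the class was rebuilt with other clustering resolutions, where CNTN4 was at 0.065 and 0.066 and NCAM1 at 0.10 and 0.61.

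In the glia-like class NCAM1 was higher in the knockout library, with a log2 ratio of 0.46 (0.33 to 0.59), and NFASC was at 75.0 CPM (32 UMIs) in the knockout and 19.6 CPM (8 UMIs) in the wild type library, a ratio of 1.94 (0.79 to 3.26). Of the 5 members with at least 20 UMIs in glia, 1 was below 0 (background 43.6%) and 1, NFASC, was 2-fold or more higher (background 7.82%). Among the numbered clusters, 0 of 6 members were below 0 in cluster 4 (background 42.8%), 3 of 7 in cluster 9 (background 45.2%), 1 of 5 in cluster 8 (background 38.2%), 5 of 5 in cluster 12 (background 45.3%) and 4 of 6 in cluster 14 (background 45.7%). In fibroblast-marker cluster 4 the contactins CNTN3 and CNTN4 were higher in the knockout library, at 0.42 (0.17 to 0.67) and 0.50 (0.27 to 0.73), and in cluster 9 they were lower, at -0.49 (-0.78 to -0.20) and -0.87 (-1.48 to -0.30). The CNTN4 count in cluster 9 was low. Of its 31 knockout UMIs 61.3% came from 13 of 248 nuclei, and of its 143 wild type UMIs 50.3% came from 29 of 577. At such low counts an even spread also gives a large share, whose size was not computed. In wild type cluster 12, led by the transporter gene SLC6A11, 85.1% of the 87 CNTN4 UMIs came from 8 of 152 nuclei, and the ratio there was -1.46 (-2.19 to -0.79). The upper 8 wild type nuclei also held all 21 UMIs of CNTN1 and all 19 of NRCAM, each gene ranked on its own. For NCAM1 they held 54.2% and for CNTN3 50.0%.

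Other members of the same families were counted for comparison. Of the 6 in the tables, 5 were below 0 over all nuclei (background 40.1%) and 1 was 2-fold or more lower (background 3.02%), with a median log2 ratio of -0.32. That gene was NCAM2, the relative of NCAM1, at 125 CPM in the knockout library against 459 CPM in the wild type library (-1.88, -1.95 to -1.80), and it was lower within mature neurons too, at 228 CPM in the knockout library against 794 CPM in the wild type library (-1.80, -1.92 to -1.68). In cluster 3 alone NCAM2 stood at 184 CPM (knockout) and 228 CPM (wild type), a ratio of -0.31 (-0.64 to 0.04). The mature class held clusters 2 and 3 in different proportions in the 2 libraries, and the part of this mix in the NCAM2 ratio of the class was not tested. KIRREL1 was at -0.52 over all nuclei and -0.45 (-0.60 to -0.30) in mature neurons, where it stood at 204 CPM (knockout) and 278 CPM (wild type), and at -0.96 (-1.22 to -0.69) in cluster 3 alone. CNTN2 was highest in the glia-like class, at 157 CPM (knockout) and 201 CPM (wild type), and was at -0.56 over all nuclei. CHL1, an L1 family gene, was high in glia at 424 CPM (knockout) and 363 CPM (wild type), with wild type cluster 12 at 382 CPM, and was at -0.03 over all nuclei. CNTN6 at 0.34 (-0.68 to 1.37) and NPHS1 at -0.11 (-0.90 to 0.67) had under 40 UMIs per library.

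Of 24 binding partners and modifying enzymes, 23 were in the tables, 15 of them below 0 over all nuclei (background 40.1%), 2 lower (background 3.02%) and 2 higher (background 6.86%) by 2-fold or more, with a median of -0.11. The neurexin-like contactin partners CNTNAP2 and CNTNAP5 were lower, at -1.29 (-1.44 to -1.13) and -1.14 (-1.29 to -0.99). Within mature neurons the log2 ratio was -0.78 (-1.30 to -0.29) for CNTNAP5 and -0.52 (-1.27 to 0.20) for CNTNAP2. CNTNAP2 was low there, at 9.07 CPM (26 UMIs) in the knockout library. It was higher in the immature class, at 56.5 CPM (knockout) and 134 CPM (wild type), and in fibroblast-marker cluster 4, at 77.2 CPM (knockout) and 204 CPM (wild type). In fibroblast-marker cluster 14 it stood at 270 CPM (knockout) and 241 CPM (wild type). In cluster 6 CNTNAP5 was higher than in mature neurons, at 161 CPM (knockout) and 151 CPM (wild type). ST8SIA4, which adds polysialic acid to NCAM1, was higher at 1.59 (1.30 to 1.88), but mature neurons had almost none, with 5 UMIs in mature knockout and 3 in mature wild type nuclei. The ciliated-like nuclei held 175 ST8SIA4 UMIs at 73.3 CPM in the knockout library and 16 UMIs at 83.4 CPM in the wild type library, levels whose intervals overlap, in a class of 463 knockout and 32 wild type nuclei.

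ANK3, the ankyrin that holds neurofascin and NRCAM at the axon initial segment, was at 0.69 (0.66 to 0.72) over all nuclei. Its highest level was in the ciliated-like nuclei, at 3079 CPM (463 knockout nuclei) and 2793 CPM (32 wild type nuclei). In mature neurons it stood at 2640 CPM in the knockout library against 1531 CPM in the wild type library (0.79, 0.74 to 0.84). Its partners NFASC and NRCAM were above 0 there too, in a class where only 43.1% of genes were below 0. EZR, which encodes the membrane linker ezrin, was at 1.13 (1.03 to 1.22) over all nuclei and 1.67 (1.26 to 2.09) in mature neurons, where cluster 3 alone gave 2.28 (1.03 to 3.93). The knockout level was higher outside neurons too, at 134 CPM against 60.0 CPM (wild type) in cluster 4 and 240 CPM against 94.4 CPM (wild type) in cluster 12. In cluster 0 the intervals overlapped, at 184 CPM (knockout) and 201 CPM (wild type), as in cluster 14, at 140 CPM (knockout) and 130 CPM (wild type). Of 30 other immunoglobulin superfamily adhesion genes, 25 were below 0 over all nuclei (background 40.1%), with a median of -0.37 against -0.48 for the 10 members. Of these, 2 were 2-fold or more lower (background 3.02%), MDGA2 at -1.08 and CADM2 at -1.06. MDGA2 stood at 238 CPM (knockout) and 801 CPM (wild type) in the Bowman gland-like nuclei. In the immature neurons it stood at 14.7 CPM (knockout) and 34.7 CPM (wild type). CADM2 stood at 96.1 CPM (knockout) and 80.9 CPM (wild type) in the glia-like class, against 48.7 CPM and 59.4 CPM in the immature neurons of those libraries. The next largest ratios were those of IGSF21 at -0.98, DSCAM at -0.87 and DSCAML1 at -0.87. IGSF21 stood at 137 CPM (knockout) and 216 CPM (wild type) in the Bowman gland-like nuclei.

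Genes whose levels ran most like each member over 9 classes in both libraries (18 points) were taken as a description, since the points share libraries and depth. CNTN4 ran closest with EFHC2 (Pearson r = 0.97), ZBBX and LRRC49, CNTN1 with FGF12 (0.98), LIPI and SLIT1, and CNTN5 with SRRM3 (0.98), RFX3 and GALNT14. NCAM1 ran with ANK2 (0.96), ATL1 and PGBD5, NRCAM with LRRD1 (0.92), TRIM2 and PDE8A, and NFASC with SCN2A (0.97), DPYSL5 and SVOP. KIRREL2 ran with MMEL1 (0.96), FASTKD2 and MDH1B, and KIRREL3 with FANK1 (0.93), UPP2 and ARL3. CNTN3 ran with MAML3 (0.96) and TCF7L2, and its r with each of the 9 other members was negative, from -0.89 with KIRREL2 to -0.30 with L1CAM. The horizontal basal-like class, where NRCAM is highest, had too few nuclei to enter these points. The same held for the ciliated-like class, with 32 wild type nuclei, and for every other class under 100 nuclei in either library. The likeness therefore says nothing about these classes.

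In the RefSeq annotation of the pig (assembly Sscrofa11.1), some members neighbour relatives: CNTN4 lies next to CNTN6, CNTN3 next to CHL1, NFASC next to CNTN2 and KIRREL2 next to NPHS1. CNTN2 was highest and CHL1 high in glia, where CNTN3 was at 117 CPM (knockout) and 93.1 CPM (wild type). CNTN5 overlaps 2 annotated long non-coding RNAs and CNTN1 a transcribed pseudogene, whose reads cannot be separated where counting did not use strand. No coordinates are printed, because the sources used here do not name the genome build of the counts.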

How the data were processed

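The authors deposited 1 table per library of raw UMI counts (whole numbers, seen in the values; no scaling), and R 4.0.2, Seurat 4.0 and Cell Ranger appear in the submitters' processing notes, without saying what each did. The sources used here do not give the genome build, annotation or strand setting. The tables held 6054 knockout barcodes with 16623086 UMIs and 4715 wild type barcodes with 18731495 UMIs, each barcode with at least 500; 8256 of 25880 rows had only an Ensembl identifier, of which 1029 were given a symbol.

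One wild type nucleus under 200 genes was removed. Scrublet's own threshold called 1 nucleus per library and had not worked, so the highest scores were removed at 0.8% per 1000 nuclei (293 knockout, 178 wild type). Clusters came from 2000 variable genes (without the 10 genes, CFTR and mitochondrial genes), 30 components, 15 neighbours and Leiden resolution 1, with no integration (scanpy 1.11.5). A name needed 3 markers that stood out in the cluster, more than any other type, and names may differ from the authors'. A class was compared by name only where no cluster of it was led by another type's markers among its top 10 genes.

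UMIs were summed per class and library. Ratios, knockout over wild type, have exact conditional binomial intervals, and were formed for units of at least 100 nuclei per library and genes of at least 20 UMIs in all; levels have exact Poisson and shares Clopper-Pearson intervals, all at 95%. The computation was tested on simulated counts. Thinning to 1000 UMIs left out 1325 knockout and 378 wild type nuclei. The members and lists were chosen with earlier results of these data known. Named were the 10 members, the other family members, the 5 largest ratios over all nuclei in each of the 2 further lists (at least 20 UMIs per library), and the 3 genes closest to each member (at least 100 UMIs per library), except 1 that is not reported here. Alternatives were other scalings (edgeR 4.0.16 TMM factors, size factors), weights, filters, clusterings and thinning.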

Additional observations from a re-analysis of the deposited data

Results flagged for a closer look

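For 5 of the 10 genes the log2 ratio, knockout over wild type, had an interval above 0 in at least 1 class or cluster and below 0 in another; the differences between classes were not tested. CNTN1 was at 0.27 in the immature neurons, where cluster 6 alone gave -0.04, and at -1.94 in cluster 12 (4 knockout and 21 wild type UMIs). All 21 wild type UMIs there came from at most 8 of 152 nuclei. CNTN3 was at 0.42 in cluster 4 and at -0.71 in the immature neurons, where cluster 6 alone gave 0.01. CNTN4 was at 0.50 in cluster 4 and at -1.46 in cluster 12, and below 0 in 5 units. NCAM1 was at 0.60 (0.24 to 0.96) in cluster 14 and at -0.16 in the precursors, and above 0 in 5 units. NFASC was at 1.94 in the glia-like class and at -2.33 (-5.46 to -0.32) in cluster 14, where it had 2 knockout and 24 wild type UMIs.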

How the results depend on the processing

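No paired analysis was possible because each genotype had 1 library, and for the same reason no replicate could be left out. Over all nuclei 10 genes were below 0 under the other scalings and filters, 9 with equal weight to each nucleus and with thinned nuclei, and 6 with equal weight to each class (median -0.050, with NCAM1 at 0.30, NRCAM at 0.041 and NFASC at 0.32). Other scalings moved the median of all genes from 0.10 to 0.0025 (TMM factors) and -0.014 (size factors), and 1 and 2 members were then 2-fold lower. In precursors CNTN4 turned to 0.065 at resolution 0.5, 0.066 at resolution 2, 0.48 with separate clustering of the libraries and 0.19 with at least 500 genes per nucleus, and NCAM1 to 0.10, 0.61, 0.27 and 0.17 under the same settings, to 0.067 with the 10 genes allowed in the clustering, to 0.13 without doublet removal and to 0.23 with thinned nuclei, where 3 of 6 genes were below 0. In the immature class CNTN3 turned to 0.082 at resolution 2, 0.17 with own clustering and 0.0081 in cluster 6 alone, and CNTN1 to -0.0066 with own clustering and -0.043 in cluster 6 alone; these cluster 6 values and the sums without clusters 1 and 19 were chosen after seeing the data. KIRREL2 was found in 0 of 68 KIRREL3 nuclei of the knockout library with thinning to 2000 UMIs, an interval up to 5.28%, against 7.36% of the nuclei without KIRREL3, and in 10.6% of those of the wild type library with no thinning. The number of genes with the same highest class in both libraries was between 6 and 8. The causes of these changes were not tested. Of the single-gene log2 ratios under all alternatives, 19 of 221 whose main interval lay clear of 0 changed sign, as did 18 of 90 whose main interval held 0. The low counts of KIRREL2, KIRREL3, CNTN5 and L1CAM widen their intervals.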
